A study of Triticum aestivum with 24 samples.

Results

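In the wheat leaf sheath, 24 genes were higher in seedlings carrying *Rht-D1b* than in every library of *idd5* and of Cadenza. Their mean in *idd5* stayed within 1.3-fold of that in Cadenza after 0.5 TPM was added to both. The 24 genes were chosen by their TPM values from 107891 gene models. TPM is the abundance of a transcript per unit of its length relative to the total of its library, scaled to the same sum in every library. For each gene the lowest of the 8 *Rht-D1b* values had to lie above the highest of the other 16, and the ratio of the *Rht-D1b* mean to the mean of the other 16, after 0.5 TPM was added to both, had to be at least 1.5. The *Rht-D1b* mean had to be at least 2 TPM. The same kind of ratio of *idd5* to Cadenza, and of GA-treated to water-treated Cadenza, had to stay within 1.3-fold in either direction. The stretch of chromosome 4D around *RHT-D1* itself was left out. At most 150 genes were to be kept, and 24 met the rule.

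The seedlings were of 3 genotypes of bread wheat, all in the background of the cultivar Cadenza. *Rht-D1b* was a near-isogenic line with the semidwarfing allele of the D-genome *RHT1* gene, *idd5* carried induced mutations in the A, B and D copies of *IDD5* combined by crossing and then backcrossed to Cadenza, and Cadenza was the wild type. Each genotype received either 100 µM GA3 (called GA here) or water at an age of 7 d, and leaf sheaths were collected 8 h later, with 4 biological replicates in each of the 6 groups and 24 libraries in all. Each genotype was represented by 1 line, so the *Rht-D1b* allele and any other segment in which that line differs from Cadenza cannot be told apart in these data. Tissue between the grain and the tip of the coleoptile was harvested, which holds several cell types. Differences in the number of cells of a type and in RNA per cell cannot be told apart in it.

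Gibberellin (GA) is a growth hormone that is bound in the nucleus by its receptor GID1. The hormone and receptor bind DELLA proteins, which hold back growth, and lead to their destruction. In wheat the DELLA proteins are encoded by the *RHT1* homoeologues, and *Rht-D1b* gives a DELLA that escapes this destruction, so that the plants are short and respond little to GA. IDD proteins are zinc finger transcription factors, and several of them bind DELLA proteins in *Arabidopsis thaliana*.

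The identifiers of the 24 genes are those of the deposited table. None of the 24 was matched to a gene name or an annotation in the sources used here, so they are described by identifier, chromosome and level, and their functions are not described. For the same reason the tissue label was not checked against marker genes. In each identifier the digit and letter after TraesCS give the chromosome and the subgenome (A, B or D), and U stands for sequence not placed on a chromosome. Between 56583 and 58700 genes per library reached 0.5 TPM. The median correlation of a library with the others of its own group was between 0.963 and 0.975 across genes. The depth of the libraries is not recoverable from TPM.

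The *RHT1* and *IDD5* genes, whose identifiers are known, were examined in the line first. *RHT-D1* (TraesCS4D02G040400), the gene that carries the allele, had 120, 100.1, 116 and 101 TPM in GA-treated *Rht-D1b*, against 83.6, 83.1, 94.2 and 89.5 TPM in GA-treated Cadenza. The groups did not overlap, and the log2 change was 0.31 (SE 0.07, limma adjusted p = 0.00421). In water it had 106, 103, 106 and 103 TPM in *Rht-D1b*, against 70.6, 61.5, 63.7 and 66.9 TPM in Cadenza, a log2 change of 0.67 (SE 0.07, limma adjusted p = 2.35e-06). TPM does not separate the *Rht-D1b* transcript from that of the wild-type allele. *RHT-A1* (TraesCS4A02G271000), the A-genome DELLA gene, was lower in GA-treated *Rht-D1b*, with 81.8 ± 7.20 TPM, against 105 ± 6.74 TPM in GA-treated Cadenza (SD, n = 4 each), a log2 change of -0.37 (SE 0.07, limma adjusted p = 0.00149). *RHT-B1* and the 3 *IDD5* homoeologues did not pass the test in either treatment, so 2 of these 6 genes passed with GA, where 8.02% of all genes tested passed in either direction, and 1 passed in water, where 3.92% did. None of the 6 is among the 24 genes. *RHT-D1* lies in the stretch that was left out and also fell outside both limits on the other genotypes.

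Across the 24 genes the *Rht-D1b* mean ran between 2.09 and 287 TPM, with a median of 8.52 TPM. The ratio to the other 16 libraries was between 1.60 and 19.3, with a median of 2.49. It was over 2 for 14 genes and over 4 for 7. Summed over the 24 genes, the level was 570 to 632 TPM (median 607) in *Rht-D1b*, 247 to 306 TPM (median 291) in *idd5* and 255 to 301 TPM (median 274) in Cadenza. TraesCSU02G057000 alone had a mean of 287 TPM in *Rht-D1b*. Without it the sums were 306 to 333 TPM in *Rht-D1b*, 111 to 136 TPM in *idd5* and 103 to 128 TPM in Cadenza. These differences were used to choose the genes and are given as a description.

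**Figure D1:**
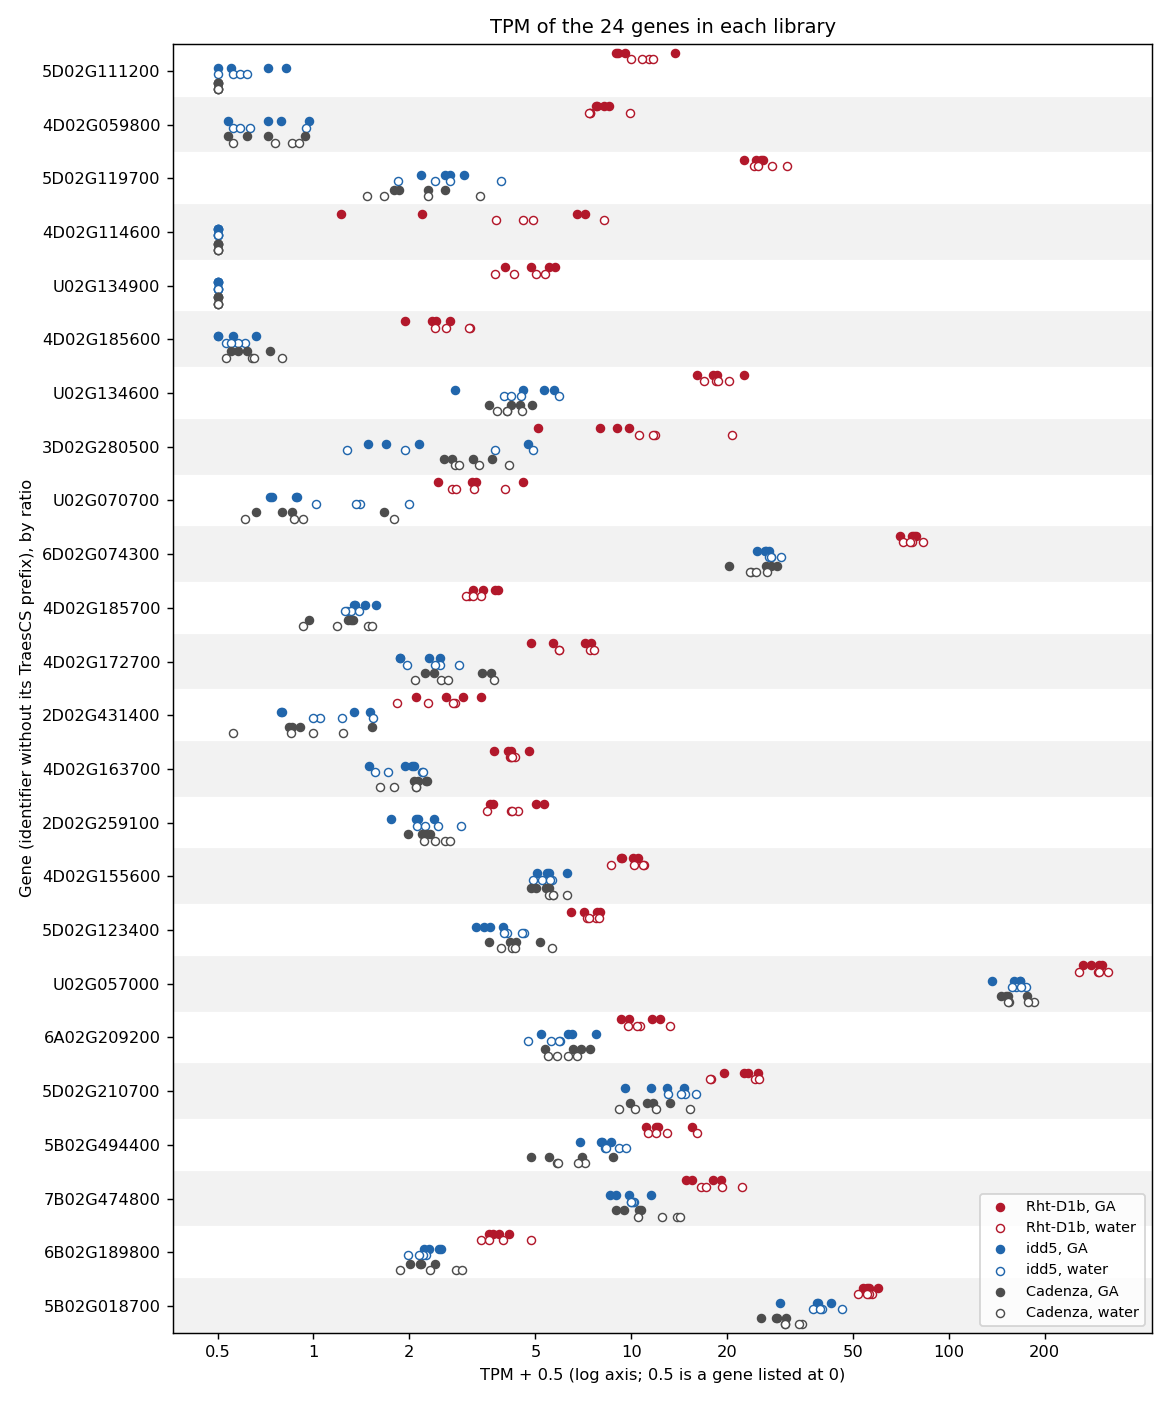
TPM plus 0.5 of each of the 24 genes on a log axis, with a point for each library, *Rht-D1b* above *idd5* and Cadenza within each gene, and filled points for GA and open points for water. The genes run from the largest ratio (19.3) at the top to the smallest (1.60) at the bottom, and in each row the 8 *Rht-D1b* points lie to the right of the other 16, as the choice requires.

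Of the 24 genes, 5 were at or near 0 in both other genotypes, with no value of 1 TPM or more among the 16 libraries. TraesCS5D02G111200, the gene with the largest ratio, had 8.62, 8.49, 13.3 and 9.07 TPM in GA-treated and 10.9, 10.3, 11.2 and 9.52 TPM in water-treated *Rht-D1b*. It was listed between 0 and 0.32 TPM in the 8 *idd5* libraries and at 0 in all 8 Cadenza libraries. GA-treated *Rht-D1b* replicate 3 was the highest library, and the others lay close together.

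TraesCS4D02G059800 (ratio 11.1) had 7.33, 8.0, 7.72 and 7.23 TPM in GA-treated and 6.90, 9.40, 6.93 and 6.87 TPM in water-treated *Rht-D1b*. Its other 16 values were between 0.04 and 0.47 TPM, with a median of 0.22 TPM. The level in *Rht-D1b* varied little, with a coefficient of variation (SD over mean) of 11.3% over the 8 libraries.

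TraesCS4D02G114600 was listed at 0 in all 16 libraries of *idd5* and Cadenza. In *Rht-D1b* it had 0.72, 1.70, 6.26 and 6.65 TPM with GA and 3.25, 4.06, 7.71 and 4.41 TPM in water. It was the most variable of the 24 genes, with a coefficient of variation of 56.2% over the 8 *Rht-D1b* libraries. The low values were those of GA replicates 1 and 2. The range over the 24 genes began at 4.50% and its median was 13.8%.

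TraesCSU02G134900 was also listed at 0 in all 16 other libraries, and had 5.25, 4.34, 3.52 and 5.0 TPM in GA-treated and 3.79, 3.24, 4.52 and 4.84 TPM in water-treated *Rht-D1b*. These 2 genes were the only ones of the 24 at 0 in all 16, and no fold is given for either. TraesCS4D02G185600 (ratio 4.32) was the lowest of the 24 genes in *Rht-D1b*, with values between 1.45 and 2.62 TPM (median 2.03), against 0 to 0.16 TPM in *idd5* and 0.03 to 0.30 TPM in Cadenza. It stood nearest to the minimum mean of 2 TPM, with a mean of 2.09 TPM, together with TraesCS2D02G431400 (ratio 2.43), whose mean was also 2.09 TPM.

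A further set of 5 genes was measured in all genotypes, with ratios between 2.91 and 10.7. TraesCS5D02G119700 (ratio 10.7) had 25.5, 25.1, 22.1 and 24.2 TPM in GA-treated and 30.5, 23.9, 27.2 and 24.6 TPM in water-treated *Rht-D1b*. It had between 1.35 and 3.39 TPM (median 2.15) in *idd5* and between 0.98 and 2.84 TPM (median 1.58) in Cadenza. The lowest *Rht-D1b* value was 18.7 TPM above the highest of the others.

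TraesCSU02G134600 (ratio 4.26) had 15.7 to 22.1 TPM (median 18.1) in *Rht-D1b*, 2.29 to 5.45 TPM (median 4.04) in *idd5* and 3.06 to 4.37 TPM (median 3.63) in Cadenza. TraesCS3D02G280500 (ratio 3.68) had 4.60 to 20.3 TPM (median 9.73) in *Rht-D1b*, 0.78 to 4.42 TPM (median 1.55) in *idd5* and 2.08 to 3.64 TPM (median 2.53) in Cadenza. The spread of these 2 genes within *Rht-D1b* was not alike. The groups of TraesCS3D02G280500 were separated by only 0.18 TPM, and its coefficient of variation in *Rht-D1b* was 44.2%, against 11.0% for TraesCSU02G134600.

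TraesCSU02G070700 (ratio 3.05) had 1.97 to 4.07 TPM (median 2.68) in *Rht-D1b*, 0.23 to 1.5 TPM (median 0.46) in *idd5* and 0.11 to 1.29 TPM (median 0.37) in Cadenza. TraesCS6D02G074300 (ratio 2.91) was far more abundant and steadier, with 69.6 to 82.6 TPM (median 76.0) in *Rht-D1b*, 24.4 to 29.1 TPM (median 26.6) in *idd5* and 19.9 to 28.2 TPM (median 25.2) in Cadenza. Its coefficient of variation in *Rht-D1b* was 5.27%.

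Of the 5 genes with the highest *Rht-D1b* mean, 3 had a ratio under 2. TraesCSU02G057000 (ratio 1.78) was the most abundant, with 255 to 316 TPM (median 294) in *Rht-D1b*, 136 to 175 TPM (median 164) in *idd5* and 145 to 185 TPM (median 153) in Cadenza. TraesCS5B02G018700, which had the smallest ratio of the 24 (1.60), had 51.1 to 59.4 TPM (median 55.2) in *Rht-D1b*, 29.0 to 45.6 TPM (median 38.6) in *idd5* and 25.2 to 33.9 TPM (median 30.0) in Cadenza. Its *idd5* mean was close to the limit, at 1.28 times that of Cadenza after 0.5 TPM was added to both. TraesCS5D02G210700 (ratio 1.76) had 17.2 to 24.8 TPM (median 22.5) in *Rht-D1b*, 9.10 to 15.5 TPM (median 13.2) in *idd5* and 8.66 to 14.8 TPM (median 11.0) in Cadenza. The separation of this gene was 1.68 TPM.

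The gene just outside the threshold on the ratio was TraesCS5D02G126900, with a ratio of 1.43, which met every other condition and had 38.2 to 46.9 TPM (median 44.5) in *Rht-D1b*, against 26.9 to 34.1 TPM (median 28.8) in *idd5* and 28.4 to 35.9 TPM (median 31.5) in Cadenza. In all, 54 genes had 8 *Rht-D1b* values above the other 16. Of these, 53 were among the 63241 genes tested, or 0.0838% of them. Of the 54, 37 also met the ratio and the mean. The limit on *idd5* alone removed 8 of the 37, the limit on GA-treated Cadenza alone removed 2, both removed 1, and 2 lay in the stretch that was left out. One of these 2 was TraesCS4D02G048400, chosen here after its values were seen, which met every other condition with a ratio of 4.05 and had 1.98 to 2.74 TPM in *Rht-D1b*, 0.15 to 0.32 TPM in *idd5* and 0.12 to 0.53 TPM in Cadenza.

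The calls of the limma model between genotypes are given beside the choice, since both used the same values. The model was fitted to log2(TPM + 0.5) of the 63241 genes that reached 0.5 TPM in 4 or more libraries, with a mean for each of the 6 groups and Benjamini-Hochberg adjustment over all of them, and a gene was called at an adjusted p under 0.01. All 24 genes were among those tested, and low genes could enter the test through their *Rht-D1b* libraries. Between *Rht-D1b* and Cadenza, 23 of the 24 were called higher with GA, where 3.24% of all genes tested were called higher, and 24 in water, where 1.69% were. Between *Rht-D1b* and *idd5*, 23 were called higher with GA (0.381% of all) and 19 in water (0.25% of all). Between *idd5* and Cadenza, 1 of the 24 was called higher in *idd5* with GA, where 4.57% of all were, and 0 in water, where 2.81% were. The 1 was TraesCS5B02G018700, with 37.9, 29.0, 42.0 and 38.3 TPM in GA-treated *idd5*, against 30.3, 28.2, 25.2 and 28.1 TPM in GA-treated Cadenza, a log2 change of 0.38 (SE 0.09, limma adjusted p = 0.00440). The values of these groups overlapped. None of the 24 was called lower in *idd5*. Nothing is read from these counts.

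The question of whether a gene picked in this way keeps its difference in libraries that did not pick it was tested across the treatments. The rule was applied to the 12 water-treated libraries alone, without the limit on GA-treated Cadenza, and the genes it gave were measured in the 12 GA-treated libraries. It gave 48 genes. In the GA-treated libraries 43 of the 48 were higher in *Rht-D1b* than in both Cadenza and *idd5*, with a median log2 change of 0.87 against Cadenza and 0.73 against *idd5*, where the medians over all genes tested were -0.04 and 0.01. Both contrasts were called higher at an adjusted p under 0.01 from limma's test for 17 of the 48, or 35.4%, where 0.0449% of all 60164 genes tested were. These 2 contrasts share the *Rht-D1b* libraries. Low genes could enter this test through their *Rht-D1b* libraries alone. Among the 17, this was so for the 5 genes at or near 0 in both other genotypes. The 35.4% includes these 5 genes. Without 1 of the 4 *Rht-D1b* libraries the count was 11, 10, 10 and 9 for replicates 1 to 4 left out, in fits that hold fewer libraries. In these fits those 5 genes did not reach 0.5 TPM in 4 libraries and were not tested. Part of the fall in the count was thus set by the filter.

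In the reverse direction 60 genes were chosen on the 12 GA-treated libraries and measured in water. In water 50 of the 60 were higher in *Rht-D1b* than in both other genotypes, with a median log2 change of 0.62 against Cadenza and 0.48 against *idd5*, where the medians over all genes tested were -0.07 and -0.01. Both contrasts were called higher for 15 of the 60, or 25%, where 0.0512% of all 60492 genes tested were. Without an *Rht-D1b* library the count was 9, 10, 8 and 8 for replicates 1 to 4 left out. Of the 5 genes near 0 in the other genotypes, all except TraesCS4D02G185600 were in this list and among the 15 called. They again entered the test through their *Rht-D1b* libraries alone, and the 25% includes them. They were not tested in the fits without an *Rht-D1b* library. Each list held 21 of the 24 genes. With GA, TraesCS5D02G111200 was higher by a log2 change of 4.35 against Cadenza and 4.01 against *idd5*, the largest of the list in each. In water it was higher by 4.45 against Cadenza and 4.28 against *idd5*, again the largest. It entered both tests only through its *Rht-D1b* libraries, so nothing is read from its rank. Every called gene was one of the 24, with 17 of 17 in the GA-treated libraries and 15 of 15 in water, and 0 of the other 27 and 0 of the other 39 genes of the lists were called. As the 24 genes had to be separate in both treatments, their share among the called genes is fixed in part by the choice.

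**Figure D2:**
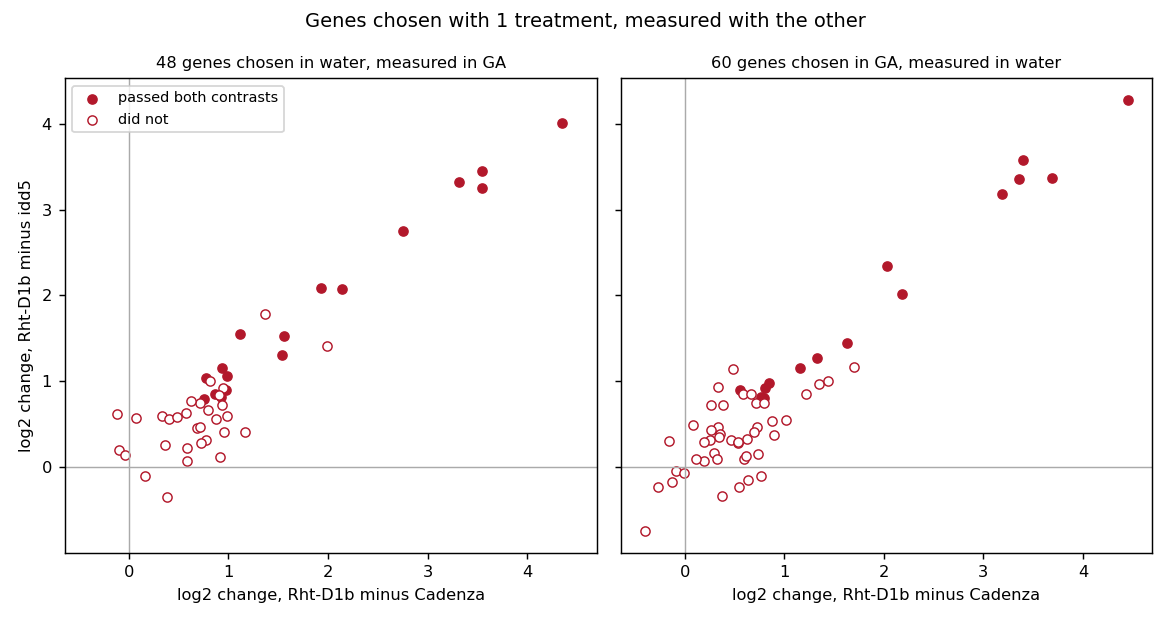
Log2 change of *Rht-D1b* against Cadenza (horizontal axis) and against *idd5* (vertical axis) for genes chosen with 1 treatment and measured with the other, with a point for each gene and filled points for genes that passed in both contrasts. In the left panel 17 of 48 genes passed and 43 lie above and to the right of 0, and in the right panel 15 of 60 passed and 50 do. The 2 axes share the *Rht-D1b* libraries.

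The change between GA and water within *Rht-D1b* was not itself a condition of the choice, but the choice limits it in part. Every *Rht-D1b* library, with GA and in water, had to lie above all libraries of the other genotypes. A gene raised in *Rht-D1b* with only GA or only water therefore could not be among the 24. With GA against water in *Rht-D1b*, 0 of the 24 genes were called by limma's test at an adjusted p under 0.01, where 0% of all genes tested were called. The smallest adjusted p among the 24 was 0.846. At an unadjusted p under 0.05 there was 1 of the 24, against 5.86% of all genes tested. The changes ran between -0.77 and 0.19 on the log2 scale, with 9 of the 24 above 0 and 15 below, and their median was -0.03, where that of all genes tested was -0.01. For 22 of the 24 the size of the change was under 0.3. This count and the numbers above and below 0 were not made for all genes tested, so nothing is read from them.

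The gene at an unadjusted p under 0.05 was TraesCS3D02G280500. It had 7.49, 8.52, 9.37 and 4.60 TPM in GA-treated and 11.4, 11.2, 20.3 and 10.1 TPM in water-treated *Rht-D1b*. The 2 treatments did not overlap, and water replicate 3 stood well above the rest. The log2 change was -0.77 (SE 0.36, limma adjusted p = 0.846), so it did not pass. Without water replicate 3 the change was -0.55. It was the only one of the 24 genes whose GA and water values in *Rht-D1b* did not overlap, which held for 2.72% of all genes tested.

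TraesCS4D02G114600 had the next largest change, -0.60 (SE 0.37, limma adjusted p = 0.902), with values given above that overlap between the treatments. For the abundant genes the interval of the change was narrow. The 95% interval was -0.20 to 0.15 for TraesCSU02G057000, -0.19 to 0.15 for TraesCS6D02G074300 and -0.16 to 0.21 for TraesCS5B02G018700. For TraesCS5D02G111200 it was wider, -0.42 to 0.21.

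In *idd5*, GA against water also gave 0 of the 24 genes called by limma's test, where 0% of all genes tested were called, with 2 at an unadjusted p under 0.05, against 6.67% of all. The median change was -0.06, and that of all genes tested was -0.03. TraesCSU02G070700 had 0.23, 0.38, 0.39 and 0.24 TPM in GA-treated and 1.5, 0.52, 0.90 and 0.86 TPM in water-treated *idd5*. The groups did not overlap, and the log2 change was -0.80 (SE 0.29, limma adjusted p = 0.619). In *Rht-D1b* the same gene had 2.66, 1.97, 2.76 and 4.07 TPM with GA and 2.24, 2.70, 3.51 and 2.31 TPM in water, a log2 change of 0.06 (SE 0.29).

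The other gene was TraesCS5D02G123400. It had 2.94, 3.46, 2.74 and 3.11 TPM in GA-treated and 3.56, 3.49, 4.09 and 4.05 TPM in water-treated *idd5*, without overlap, a log2 change of -0.27 (SE 0.12, limma adjusted p = 0.698). In *Rht-D1b* its change was -0.05 (SE 0.12). Both genes were chosen here after their values were seen. Of the 24 genes, 3 had GA and water values in *idd5* that did not overlap, where 3.42% of all genes tested had, and the third was TraesCS6D02G074300. The difference of the 2 responses, *Rht-D1b* minus *idd5*, was tested for each gene with limma, and 0 of the 24 passed, where 0% of all genes tested did. At an unadjusted p under 0.05 there were 0 of the 24, against 4.8% of all. For TraesCSU02G070700 it was 0.86 (SE 0.41, limma adjusted p = 0.999), with a 95% interval from -0.0017 to 1.72. The intervals of the 24 differences do not show that the genes respond alike.

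**Figure D3:**
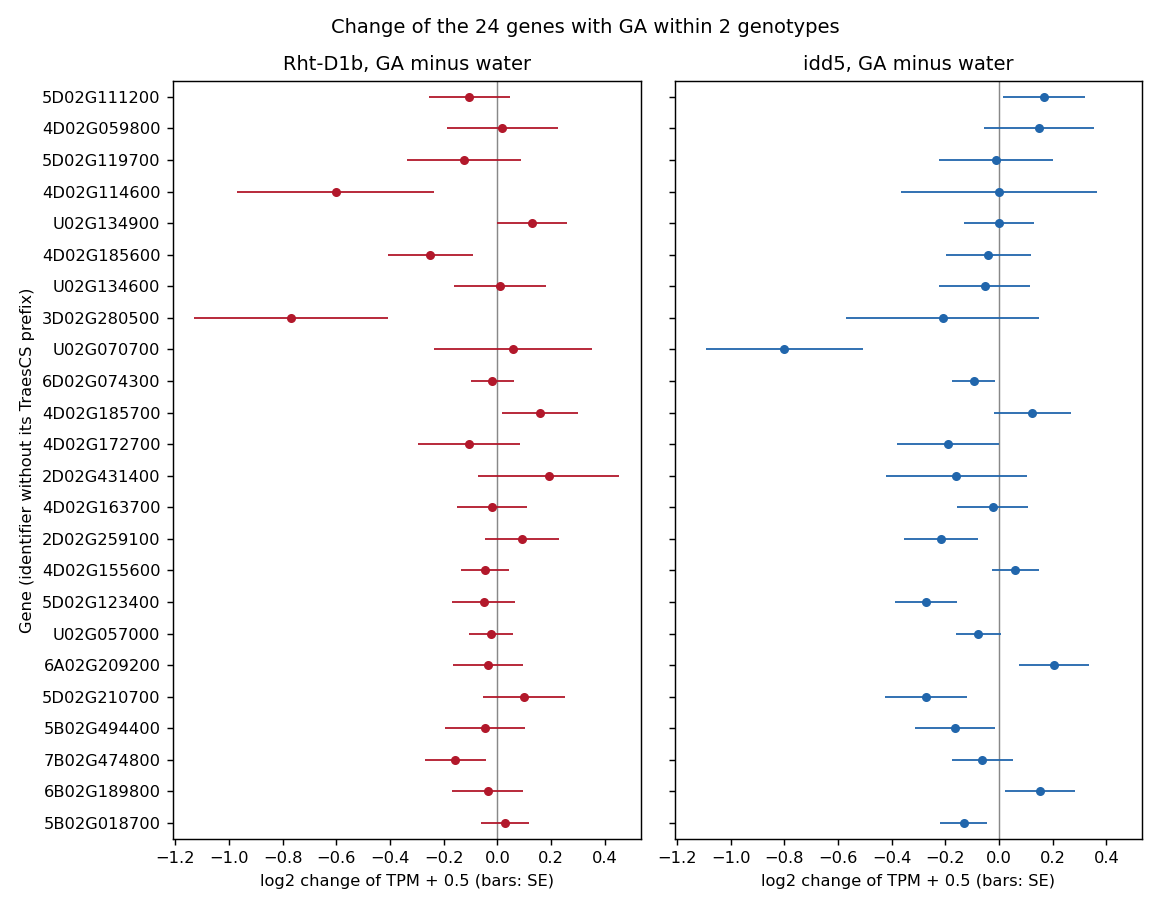
Log2 change of each of the 24 genes with GA against water in *Rht-D1b* (left) and in *idd5* (right), with the SE of limma's model as bars and the genes in order of their ratio. In *Rht-D1b* the point farthest from 0 is TraesCS3D02G280500, at -0.77, and in *idd5* it is TraesCSU02G070700, at -0.80.

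Position on the chromosomes was not used in the choice, apart from the stretch on 4D that was left out. Chromosome 4D held 7 of the 24 genes and 3.87% of the genes tested, 5D held 4 and 5.47%, and sequence not placed on a chromosome held 4 and 1.44%. There were 2 genes each on 2D and 5B and 1 each on 3D, 6A, 6B, 6D and 7B. Of the 20 genes with a chromosome, 15 (75%) were on the D subgenome, which held 33.3% of the tested genes with a chromosome, 4 were on B and 1 on A. All 5 genes on A and B had a ratio under 2. Of the 14 genes with a ratio over 2, 11 were on D and 3 were unplaced. No test was made, because neighbouring genes are not independent and each genotype was 1 line.

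Kallisto divides reads between near-identical copies of a gene. A difference between the copies of the A, B and D subgenomes in how reads were divided was not tested.

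**Figure D4:**
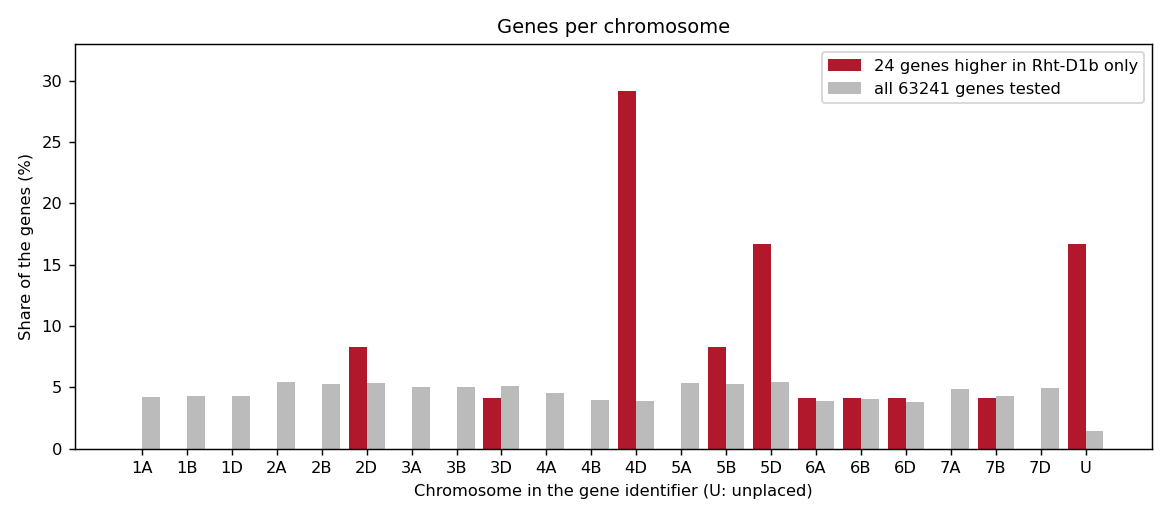
Share of the 24 genes (red) and of all 63241 genes tested (grey) on each chromosome, in percent, with U for unplaced sequence. The tallest red bar is 4D, with 7 of the 24 genes beside 3.87% of the genes tested.

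The same rule turned round gave 28 genes lower in *Rht-D1b* only. Of the 26 of these with a chromosome, 16 (61.5%) were on D. With *idd5* and *Rht-D1b* exchanged, the rule gave 25 genes higher in *idd5* only, of which 3 (12%) were on D and 16 on B. Of these 16, 11 were on chromosome 5B, which held 5.29% of the genes tested. These shares stand beside the 75% above as a description, and the difference between the lists was not tested.

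On 4D the 7 genes began 131 tested genes after *RHT-D1*, with TraesCS4D02G059800, and ended 986 after it, with TraesCS4D02G185700. The span between these 2 genes held 856 tested genes, 35.0% of those on 4D. The median log2 ratio of the tested genes in it was -0.04. Genes that were lower in *Rht-D1b* only lay among the 7, with 5 in the span. In identifier order TraesCS4D02G154700, which was lower, came before TraesCS4D02G155600 (ratio 1.83), which was higher. TraesCS4D02G154700 had 0 to 0.15 TPM (median 0.035) in *Rht-D1b*, 8.72 to 11.3 TPM (median 9.33) in *idd5* and 8.90 to 12.1 TPM (median 10.4) in Cadenza. TraesCS4D02G155600 had 8.15 to 10.48 TPM (median 9.67) in *Rht-D1b*, 4.41 to 5.79 TPM (median 4.99) in *idd5* and 4.33 to 5.80 TPM (median 5.01) in Cadenza. The 2 differences thus ran in opposite directions.

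TraesCS4D02G163100, lower in *Rht-D1b*, and TraesCS4D02G163700 (ratio 2.13), higher, made another such case. TraesCS4D02G163100 had 2.31 to 3.70 TPM (median 3.32) in *Rht-D1b*, 11.0 to 14.3 TPM (median 13.1) in *idd5* and 9.59 to 12.2 TPM (median 10.3) in Cadenza. TraesCS4D02G163700 had 3.20 to 4.26 TPM (median 3.69) in *Rht-D1b*, 1.0 to 1.72 TPM (median 1.49) in *idd5* and 1.12 to 1.78 TPM (median 1.61) in Cadenza. The lower genes are named here after their values were seen.

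Only 1 pair of the 24 genes had neighbouring identifiers with no tested gene between them, TraesCS4D02G185600 and TraesCS4D02G185700. TraesCS4D02G185700 (ratio 2.55) had 2.52 to 3.32 TPM (median 2.77) in *Rht-D1b*, 0.76 to 1.08 TPM (median 0.85) in *idd5* and 0.43 to 1.03 TPM (median 0.80) in Cadenza. In both genes of the pair the *idd5* and Cadenza values overlapped. TraesCSU02G134600 and TraesCSU02G134900 had 1 tested gene between them, but the order of unplaced identifiers is not a position. No stretch held 3 of the 24 genes with at most 10 tested genes between them.

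On 5D the 4 genes spanned 743 tested genes, 21.5% of the chromosome, and 3 of them, TraesCS5D02G111200, TraesCS5D02G119700 and TraesCS5D02G123400, followed each other with 72 and 29 tested genes between them. TraesCS5D02G119400, 2 gene models beside TraesCS5D02G119700, was among the genes lower in *Rht-D1b* only. It had 0.15, 0.84, 0.67 and 1.2 TPM in GA-treated and 1.03, 0.78, 0.41 and 0.67 TPM in water-treated *Rht-D1b*, against 16.5 to 22.0 TPM (median 19.8) in *idd5* and 19.3 to 25.2 TPM (median 21.4) in Cadenza. Its log2 ratio was -4.11. The raised gene TraesCS5D02G119700 had 25.4 ± 2.52 TPM in *Rht-D1b*, 2.17 ± 0.61 TPM in *idd5* and 1.67 ± 0.60 TPM in Cadenza (SD, n = 8 each). Whether reads of 1 gene were assigned to the other was not tested.

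Most neighbours of the 24 genes differed by less than 1.5-fold. Among the 5 gene models on each side of the 24, 133 were tested and not among the 24. They include gene models listed beside the unplaced genes, where the order of identifiers is not a position. Of these 133, 4 were at least 1.5-fold higher in *Rht-D1b* and 1 at least 1.5-fold lower, 3.76% together, where 2.89% of all genes tested were past 1.5-fold in either direction. The median log2 ratio of the neighbours was 0.02, against -0.02 over all genes tested. The 1 lower was TraesCS5D02G119400. The largest of the 4 was TraesCS5D02G110700, 5 gene models before TraesCS5D02G111200, which was listed at 0 in all 16 libraries of *idd5* and Cadenza and had 2.20, 2.22, 0 and 3.96 TPM in GA-treated and 3.41, 2.78, 1.62 and 0 TPM in water-treated *Rht-D1b*. It was not among the 24 because 2 of its *Rht-D1b* libraries were at 0. TraesCS6D02G074100, beside TraesCS6D02G074300, had a log2 ratio of 1.15, TraesCS4D02G059300, near TraesCS4D02G059800, had 0.71, and TraesCS4D02G172800, next to TraesCS4D02G172700, had 0.63. In TraesCS6D02G074100 and TraesCS4D02G172800 all 8 *Rht-D1b* values also lay above the other 16. The same held for TraesCS5D02G119600, next to TraesCS5D02G119700, with 9.26 to 11.6 TPM in *Rht-D1b* and 5.85 to 9.03 TPM in the others. Such a separation held for 0.0838% of all genes tested. In TraesCS4D02G172800 it was narrow, with a lowest *Rht-D1b* value of 42.6 TPM against a highest of 41.8 TPM in the others. This gene was also higher in *idd5*, at 1.51 times Cadenza after 0.5 TPM was added to both means, outside the limit of the rule. TraesCS6D02G074100 had an *Rht-D1b* mean of only 1.61 TPM, under the minimum of the rule. These neighbours were chosen after their values were seen.

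**Figure D5:**
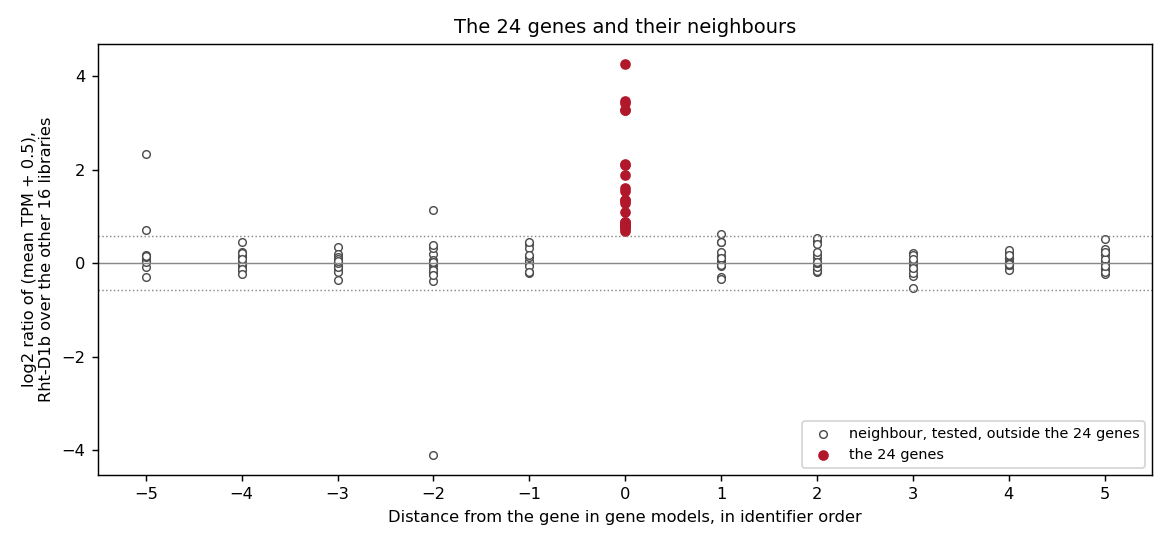
Log2 ratio of *Rht-D1b* to the other 16 libraries, after 0.5 TPM was added to both means, for the 24 genes (red, at 0 on the horizontal axis) and for the tested gene models up to 5 identifiers on each side (open). Dotted lines mark 1.5-fold. Of the 133 neighbours 4 lie above the upper line and 1, at -4.11, below the lower one. Gene models listed beside unplaced genes are included, although their order is not a position.

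The remaining genes of the 24 differed in smaller steps. TraesCS4D02G172700 (ratio 2.54) had 4.35 to 7.12 TPM (median 6.05) in *Rht-D1b*, 1.37 to 2.38 TPM (median 1.87) in *idd5* and 1.59 to 3.19 TPM (median 2.1) in Cadenza. TraesCS2D02G431400 had 1.33 to 2.86 TPM (median 2.19) in *Rht-D1b*, 0.29 to 1.04 TPM (median 0.64) in *idd5* and 0.06 to 1.03 TPM (median 0.39) in Cadenza. These are low levels, at which the separation of the groups was 1.16 TPM for TraesCS4D02G172700 and 0.29 TPM for TraesCS2D02G431400. TraesCS2D02G259100 (ratio 1.84) had 3.03 to 4.83 TPM (median 3.70) in *Rht-D1b*, 1.26 to 2.42 TPM (median 1.69) in *idd5* and 1.48 to 2.19 TPM (median 1.80) in Cadenza. TraesCS5D02G123400 (ratio 1.79) had 5.96 to 7.48 TPM (median 7.06) in *Rht-D1b*, 2.74 to 4.09 TPM (median 3.48) in *idd5* and 3.07 to 5.12 TPM (median 3.77) in Cadenza. In both the *idd5* and Cadenza values overlapped.

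The 5 genes on the A and B subgenomes were among the 10 with a ratio under 2, beside 4 on D and 1 unplaced. TraesCS6A02G209200 (ratio 1.77), the only one on A, had 8.81 to 12.8 TPM (median 10.1) in *Rht-D1b*, 4.25 to 7.24 TPM (median 5.45) in *idd5* and 4.85 to 6.91 TPM (median 5.95) in Cadenza. TraesCS5B02G494400 (ratio 1.74) had 10.7 to 15.7 TPM (median 11.6) in *Rht-D1b*, 6.38 to 9.15 TPM (median 7.81) in *idd5* and 4.33 to 8.24 TPM (median 5.86) in Cadenza. Its *idd5* mean stood nearest of the 24 to the limit, at 1.29 times that of Cadenza after the same addition of 0.5 TPM. TraesCS7B02G474800 (ratio 1.68) had 14.4 to 21.8 TPM (median 17.2) in *Rht-D1b*, 8.05 to 11.0 TPM (median 9.49) in *idd5* and 8.45 to 13.7 TPM (median 10.2) in Cadenza. TraesCS6B02G189800 (ratio 1.68) had 2.86 to 4.34 TPM (median 3.26) in *Rht-D1b*, 1.48 to 2.03 TPM (median 1.75) in *idd5* and 1.37 to 2.44 TPM (median 1.76) in Cadenza. TraesCS7B02G474800 also came nearest to the limit on treatment, with a ratio of GA-treated to water-treated Cadenza of 0.78 after that addition.

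The most extreme *Rht-D1b* library differed from gene to gene. The highest of the 8 *Rht-D1b* values of a gene fell in GA replicate 4 for 6 genes, in water replicates 3 and 4 for 5 each, and in the other libraries for 2 or fewer each. The lowest fell in GA replicate 3 for 8 genes and in water replicate 2 for 5. Leaving out any 1 of the 24 libraries gave between 23 and 27 genes under the rule, and between 21 and 24 of the original genes were among them.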

How the data were processed

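RNA-seq was analysed for 24 leaf sheath libraries, 4 for each of 3 genotypes and 2 treatments. The authors trimmed the reads with Trimmomatic (version 0.39), quantified them with kallisto and deposited 1 table of TPM values. The paper's methods and the series text give unlike gene model releases, so identifiers are those of the table. TPM keeps no depth, so precision rests on the replicates. Sample titles gave the groups and replicate numbers.

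The members and lists were chosen with earlier results of these data known. The rule was applied in Python (version 3.11.15), and it and limma were tested on simulated data. Log2(TPM + 0.5) of genes reaching 0.5 TPM in 4 or more libraries was fitted in R (version 4.3.3) by limma (version 3.58.1) with 6 group means and a mean-variance trend, and p-values were adjusted by Benjamini-Hochberg with a threshold of 0.01. Fold changes are on this scale, which understates those of low genes. For genes chosen with 1 treatment, only the 12 libraries of the other were fitted. The study's count test could not be used on TPM.

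Genes were named as the 10 with the largest ratio, the 5 with the highest level, those at the limits of the rule, those at 0 in the other 16 libraries, those that did not overlap between treatments in *Rht-D1b*, and 6 genes whose names a source gives. The remaining members and other genes were named after their values were seen. Alternatives were pseudocounts of 0.1 and 1, median-ratio scaling, other limits and minimums in the rule, no filter or 2 TPM, the replicate number as a block, only the groups compared, an adjusted p of 0.05 and each library left out.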

Additional observations from a re-analysis of the deposited data

Results flagged for a closer look

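Each of the 24 genes was examined in each group of 4 libraries for a library that stood apart from the other 3, by the size of its gap as a share of the range (Dixon's criterion at 95%). Of the 134 groups with more than 1 distinct value, 5 held such a library, and chance alone marks about 1 in 20 groups. Of the 5, 3 were in *Rht-D1b*. TraesCS5D02G111200 had 13.3 TPM in GA-treated *Rht-D1b* replicate 3 and 8.49 to 9.07 TPM in the others. TraesCS4D02G059800 had 9.40 TPM in water-treated *Rht-D1b* replicate 2 and 6.87 to 6.93 TPM in the others. TraesCS3D02G280500 had 20.3 TPM in water-treated *Rht-D1b* replicate 3 and 10.1 to 11.4 TPM in the others. In GA-treated Cadenza, TraesCS4D02G185700 had 0.47 TPM in replicate 4, against 0.79 to 0.83 TPM in the others, and TraesCS2D02G431400 had 1.03 TPM in replicate 3, against 0.34 to 0.41 TPM in the others. The response to GA differed between *Rht-D1b* and *idd5* for 0 of the 24 genes and 0 of all 63241 genes tested in limma, and at an unadjusted p under 0.05 for 0 of the 24 and 4.8% of all.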

How the results depend on the processing

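The rule gave 15 genes with a minimum mean of 5 TPM and between 18 and 27 with the other changes of its limits, minimum, pseudocount and scaling. Each library left out gave 23 to 27. Of the 24 genes, 18 met the rule with every library left out in turn, and 9 met it under all 32 changes of the rule or libraries. TraesCS5D02G111200, which had the largest ratio, did not meet it with a pseudocount of 0.1 or with a limit of 1.2-fold. TraesCS5B02G494400 was lost most often, under 10 of the changes. Genes chosen in water were called in the GA-treated libraries in 9 to 16 cases with a library left out, and genes chosen in GA in water in 8 to 15, the lowest without an *Rht-D1b* library. In those fits the genes near 0 in the other genotypes did not pass the filter on TPM and were not tested. At an adjusted p of 0.05 the counts were 23 and 19. Within *Rht-D1b* and within *idd5*, 0 of the 24 genes were called between GA and water under every alternative run. The ratios that moved by more than the spread between *Rht-D1b* replicates did so with another pseudocount, in 19 cases over 10 genes that were low or at 0 in the other genotypes, for example TraesCS5D02G111200, at 6.06 on the log2 scale with 0.1 and 3.41 with 1. With median-ratio scaling the change of *IDD5-A1* (TraesCS2A02G188400) between GA-treated *Rht-D1b* and Cadenza was 0.021 and that of *RHT-B1* (TraesCS4B02G043100) in water was 0.00030, both of opposite sign to the values without it, and neither passed in either. The samples share only a replicate number. The correlation of same-numbered *Rht-D1b* libraries between treatments was 0.01, 0.05, -0.09 and 0.03. For *idd5* it was 0.05, -0.03, 0.15 and 0.13. With the replicate number as a block, the counts of genes called with the other treatment were 15 and 12, and 0 of the 24 were called between treatments. TPM gives no depth, so low values carry a counting error that is unknown here.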
